A study of Mus musculus with 10 samples.

Results

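The clustered protocadherins are neural cell surface adhesion proteins encoded by 58 genes in 3 neighbouring arrays on mouse chromosome 18. Members were taken as the genes whose symbol begins with Pcdha, Pcdhb or Pcdhg on that chromosome, and their values as the scores of the peaks listed with them. Peaks were listed under 3 of these symbols, Pcdha1, Pcdha4 and Pcdhga1. By gene identifier 2 of the 58 genes carried a peak, since the identifier listed as Pcdha4 belongs to another gene model, whose span is given further on. The H4K20me1 table held 3 of its 44925 peaks and 2 of its 14565 genes from this family. The Pol II S2P table held 17 of its 51322 peaks and 2 of its 11251 genes.

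The values came from CUT&RUN, in which MNase tethered by an antibody cuts the chromatin around the antibody's target and the freed fragments are sequenced. Cultured muscle stem cells (MuSCs) were profiled for H4K20me1, histone H4 carrying 1 methyl group at its lysine 20, and for Pol II S2P, the elongating form of RNA polymerase II. The comparison asked how both marks change when Kmt5b (Suv4-20h1), which adds further methyl groups to H4K20me1, is deleted. Ctrl cells carried the labelled genotype Pax7CreERT/Suv4-20h1WT and sKO cells Pax7CreERT/Suv4-20h1KO, with 2 libraries of each per antibody. Both genotypes therefore carried the Pax7CreERT allele, a tamoxifen-inducible Cre driven from the satellite cell gene Pax7, and the methods describe tamoxifen treatment of adult mice before the cells were isolated and cultured. A replicate number names a library within its group. The p-values of the linear model fits (limma) rest on the spread between these libraries. On the deposited scale that spread was in effect the one common to features of similar score, not each feature's own. The SE given with a change has the same source. The labels give no age and no sex for a library.

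Protocadherin arrays work by promoter choice. In alpha and gamma, each variable exon has its own promoter and is spliced to constant exons shared by the whole array, whereas beta genes are single-exon genes without constant exons. The last genes of alpha and gamma, called C-type, are expressed more constitutively in neurons, while the alternate genes are chosen at random in single cells with the help of CTCF and cohesin.

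The locus ran over 911.7 kb of GRCm38, from the start of Pcdha1 at 36930184 to the end of the gamma array at 37841873 on chromosome 18. It holds 14 alpha, 22 beta and 22 gamma genes, of which 5 are C-type (Pcdhac1, Pcdhac2, Pcdhgc3, Pcdhgc4 and Pcdhgc5) and 53 are of the alternate kind. The gene named with a peak was often far from it. The peaks listed as Pcdha4 carry the identifier ENSMUSG00000103458, which GENCODE M21 names Gm42416, a gene model of 887 kb that runs from 36952741 in alpha to 37840200 in gamma. The gene that GENCODE names Pcdha4 is ENSMUSG00000104252, which ends at 37187661 inside the alpha array. Of the H4K20me1 peaks listed with a gene, 3.16% lay over 500 kb from that gene's start, as did 2.11% of Pol II S2P peaks. The peaks are therefore described by their own position, with the listed gene beside it.

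Placed in this way, no peak lay at the start or in the variable exon of an alternate gene. The 3 H4K20me1 peaks sat at the starts of Pcdhac2, Pcdhgc3 and Pcdhgc4. Of the 17 Pol II S2P peaks, 15 lay in the gamma array between Pcdhgc3 and its last constant exon, and 2 lay between beta and gamma, at the start of Taf7. Taf7 encodes a subunit of the general transcription factor TFIID and has no peak listed under its own name. No Pol II S2P peak lay in alpha or beta.

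**Figure D1:**
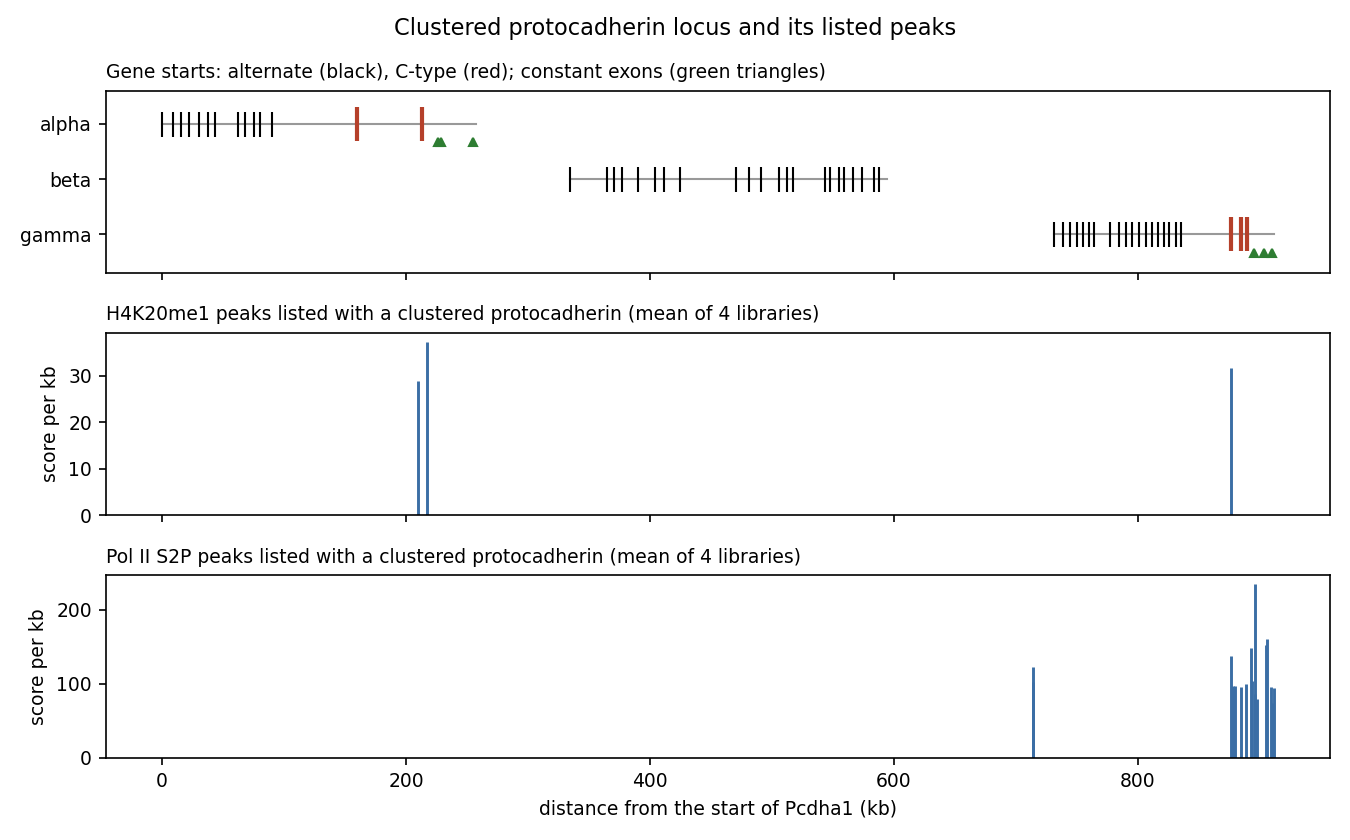
Map of the locus by distance from the start of Pcdha1 (kb). The upper panel marks the starts of 53 alternate genes (black), 5 C-type genes (red) and the constant exons (green triangles); the lower panels give the score per kb, as the mean of 4 libraries, of the 3 H4K20me1 and 17 Pol II S2P peaks, which stand at the C-type ends of alpha and gamma and at the start of Taf7.

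Counted over gene starts, 3 of 5 C-type genes had an H4K20me1 peak at or within 1 kb of the start (Pcdhac2, Pcdhgc3 and Pcdhgc4) against 0 of 53 alternate genes. For Pol II S2P the 3 of 5 were Pcdhgc3, Pcdhgc4 and Pcdhgc5, again with 0 of 53 alternates. Among all 20807 protein-coding autosomal genes the share was 49.8% for H4K20me1 and 37.1% for Pol II S2P. Over the 58 members it was 5.17% for either mark.

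The alternate genes were far from any peak. The nearest H4K20me1 peak was 117 to 166 kb from the 12 alternate alpha starts, 115 to 324 kb from the 22 beta starts and 31.6 to 135 kb from the 19 alternate gamma starts. For Pol II S2P these distances were 127 to 217 kb, 126 to 379 kb and 17.3 to 80.3 kb. Among C-type genes, Pcdhac1 lay 47.2 kb from the nearest H4K20me1 peak and 287 kb from the nearest Pol II S2P peak. Pcdhac2, known for its part in spacing serotonergic axons, had H4K20me1 on both sides of its start but its nearest Pol II S2P peak was 340 kb away. Pcdhgc5 was 3.31 kb from the H4K20me1 peak and 0.181 kb from a Pol II S2P peak.

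The longest stretch without an H4K20me1 peak was 647.6 kb, from the 3' part of alpha over the whole of beta into gamma. Of 40989 gaps between neighbouring autosomal peaks, 1.03% were as long or longer, and the median gap was 8 kb. For Pol II S2P the longest stretch was 841 kb, which 0.91% of 50679 gaps reached. It ran from 36803273 to 37643948 and so began upstream of the locus. Both percentages count gaps and not bases, and long gaps hold a larger part of the bases than of the count. The H4K20me1 peaks covered 3.27% of the locus, 4.19% of alpha, none of beta and 10.6% of gamma, against 25.4% of the autosomes and 44.3% of protein-coding gene bodies. Pol II S2P peaks numbered 18.6 per Mb over the whole locus and 83.3 per Mb in gamma, with none in alpha or beta. The autosomes held 21.3 per Mb and protein-coding gene bodies 35.5 per Mb. The authors kept unique alignments only. A region without a listed peak is below the authors' peak calling, which does not give its signal.

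The first H4K20me1 peak (37137200 to 37142799, listed as Pcdha1) ended 704 bp before the start of Pcdhac2. Its score, which stands for spike-in normalised coverage summed over the peak, was 91 and 167 in Ctrl, and in sKO it was 188 and 200. The next peak (37144400 to 37149599, also listed as Pcdha1) began 897 bp after that start and scored 100 and 137 in Ctrl against 284 and 256 in sKO. In both peaks each sKO library stood above each Ctrl library, by a narrow margin in the first; 93.9% of all H4K20me1 peaks tested were separated in that direction.

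The gamma H4K20me1 peak (37797200 to 37816199, listed as Pcdha4) was 19.0 kb long and covered the starts of Pcdhgc3 and Pcdhgc4, genes with known roles in dendrite branching and in survival of interneurons. Its Ctrl scores were 252 and 372 and its sKO scores 800 and 984, without overlap. Per kb, the mean Ctrl score was 23.0 and 22.8 in the alpha peaks and 16.4 in the gamma peak, beside a median of 22.4 over 41008 autosomal peaks. The gamma peak therefore stood at percentile 18.8 of peaks by Ctrl score per kb.

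**Figure D2:**
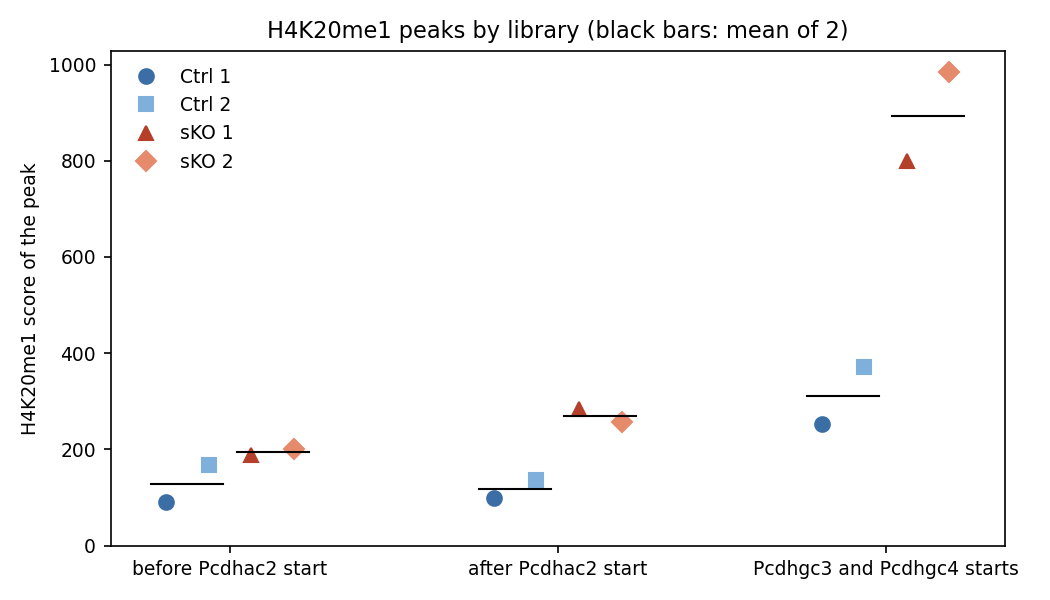
H4K20me1 score of each of the 3 peaks (vertical axis) in the 2 Ctrl and 2 sKO libraries; black bars are means of 2 libraries. Both sKO points lie above both Ctrl points in each peak, and the distance is widest at Pcdhgc3 and Pcdhgc4, where sKO reached 800 and 984.

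On the deposited scale H4K20me1 rose in sKO MuSCs at both genes that carried it. Pcdha1, the sum of the alpha pair, was 191 and 304 in Ctrl against 472 and 456 in sKO. Its log2 fold change was 0.94 ± 0.29 (SE), at an adjusted p of 0.0015 (limma on log2(score + 1), Benjamini-Hochberg). The gene listed as Pcdha4, which is the gamma peak alone, changed by 1.53 ± 0.27 with an adjusted p of 1.0e-07 in the same limma fit. Calls needed a log2 fold change beyond 0.5 in either direction together with an adjusted p under 0.1, limits taken from the study's methods. Both members were called higher, in a table where 92.3% of 13750 tested genes had that call and 0% the opposite one, so the count is near the background. Both were also separated by library, as were 96.5% of genes. In such bulk libraries, more cells with the mark and more of it per cell cannot be told apart. The median gene rose by 1.11, and relative to it Pcdha1 stood at -0.17 (percentile 34.6) and Pcdha4 at 0.42 (percentile 81.3).

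By single peak, 3 of 3 were called higher, beside 90.1% of 40902 peaks tested, with 0.00244% lower. The upstream Pcdhac2 peak changed by 0.65 ± 0.36 (limma adjusted p 0.079), the downstream one by 1.20 ± 0.34 (limma adjusted p 0.00086) and the gamma peak by 1.53 ± 0.28 (limma adjusted p 3.7e-07). The median of all tested peaks was 1.14, so that the upstream peak stood at percentile 13.1 and the gamma peak at percentile 77.5. Without sKO replicate 1 or sKO replicate 2, Pcdha1 lost its call, with changes of 0.92 and 0.97 and limma adjusted p-values of 0.127 and 0.131, in fits where the share of all genes called higher fell to 53.5% and 38.1%. Without Ctrl replicate 1 it changed by 0.61 and without Ctrl replicate 2 by 1.28, called in both. The upstream Pcdhac2 peak was called without Ctrl replicate 2 (1.08), but not without Ctrl replicate 1 (0.21), sKO replicate 1 (0.69) or sKO replicate 2 (0.60), at limma adjusted p-values of 0.520, 0.280 and 0.356. The share of all peaks called higher was 97.6% in the first of these fits and 78.5%, 57.2% and 43.8% in the others. Where 1 library was left in a group, it was taken to vary like the other group.

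Whether a rise was called depended on the scale between libraries. The H4K20me1 libraries summed over autosomal peaks to 13533657 and 18103713 (Ctrl) against 29655556 and 32238286 (sKO). When all were brought to equal totals, the median gene changed by 0.13, with 20.8% of genes called higher and 5.69% lower. Pcdha1 then changed by -0.037 ± 0.17 and was not called (limma adjusted p 0.868), whereas the gamma member was still called higher at 0.55 ± 0.13 (limma adjusted p 0.00048). On equal totals 1 of the 3 peaks, that in gamma, was called higher, beside 22.5% of peaks higher and 4.42% lower. Both sKO libraries fell below both Ctrl libraries upstream of Pcdhac2 (-0.33 ± 0.27, limma adjusted p 0.355), as in 21.2% of all peaks tested. After quantile normalisation neither gene was called (limma adjusted p 0.0954 and 0.0552), with changes of -0.34 for Pcdha1 and 0.30 for the gamma member. Of all genes, 10.3% were then called higher and 11.1% lower. Both scalings take out any change common to a whole library. They give changes relative to the library and cannot show whether a common rise was real. The study separately reported increased H4K20me1 in Kmt5b-deleted MuSCs by western blot and immunofluorescence.

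Ratios inside the locus do not depend on the scale of a library. The gamma score was 1.32 and 1.22 times the alpha score in Ctrl, against 1.69 and 2.16 times in sKO. The score downstream of the Pcdhac2 start was 1.10 and 0.820 times that upstream in Ctrl and 1.51 and 1.28 times in sKO. In both ratios the sKO libraries lay above the Ctrl libraries (exact permutation test, two-sided p = 0.333), and 0.333 is the smallest value that 2 against 2 libraries allow. Per 1000000 units of the autosomal score, the 3 peaks together held 32.7 and 37.3 in Ctrl and 42.9 and 44.7 in sKO, with the same exact p of 0.333. The share in gamma went from 18.6 and 20.5 to 27.0 and 30.5 on this scale, without overlap of the groups. Such an upward separation was common: with library totals made equal, 19037 of 40885 peaks and 6779 of 13752 genes tested showed it. For the alpha pair the groups overlapped (Ctrl 14.1 and 16.8, sKO 15.9 and 14.1).

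The highest mean Ctrl score of Pol II S2P was at the start of Pcdhgc3. This peak (37806030 to 37806969) scored 114 and 186 in Ctrl and 127 and 88 in sKO, and by mean Ctrl score it stood at percentile 90.1 of autosomal peaks. The antisense gene BC037039 overlaps it, and without strand the signal of the 2 genes cannot be told apart. Further into the Pcdhgc3 variable region were 2 weak peaks, one with Ctrl scores of 11 and 24 and sKO scores of 27 and 16, the other with 7 and 33 against 34 and 12. The Pcdhgc4 start scored 62 and 68 in Ctrl against 75 and 38 in sKO.

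Just before the start of Pcdhgc5, which encodes a C-type isoform found at synapses, a peak scored 22 and 42 in Ctrl and 40 and 14 in sKO. Beyond it came peaks of 47 and 73 in Ctrl against 44 and 34 in sKO, and of 64 and 105 in Ctrl against 124 and 60 in sKO. The former was the only one of the 17 in which both sKO libraries lay below both Ctrl libraries, and in none did both lie above. Over all 50698 autosomal peaks 7.02% were below and 15.6% above in this sense.

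The gamma constant exons, which every gamma transcript shares, were flanked by the other peaks. Another gene, the processed transcript Gm38182 (37823879 to 37840382), runs over both introns between these exons. It starts inside the peak at 37823589 to 37824440. Its signal cannot be told apart from that of the gamma genes. Between constant exons 1 and 2 the Ctrl scores were 33 and 57 and the sKO scores 59 and 41, then 98 and 136 in Ctrl and 151 and 82 in sKO, then 7 and 31 in Ctrl and 18 and 20 in sKO. Between constant exons 2 and 3 the Ctrl scores were 102 and 113 and the sKO scores 160 and 88, then 105 and 139 in Ctrl and 149 and 102 in sKO, then 13 and 40 in Ctrl and 40 and 26 in sKO. The middle peak of the first intron had the highest mean Ctrl score per kb of the 17, 235, at percentile 96.1 of autosomal peaks. Constant exon 3 held the only peaks listed as Pcdhga1, with 15 and 46 in Ctrl and 30 and 24 in sKO for one and 35 and 50 in Ctrl and 48 and 27 in sKO for the other. Because 22 gamma genes share this exon, its signal cannot be assigned to Pcdhga1.

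**Figure D3:**
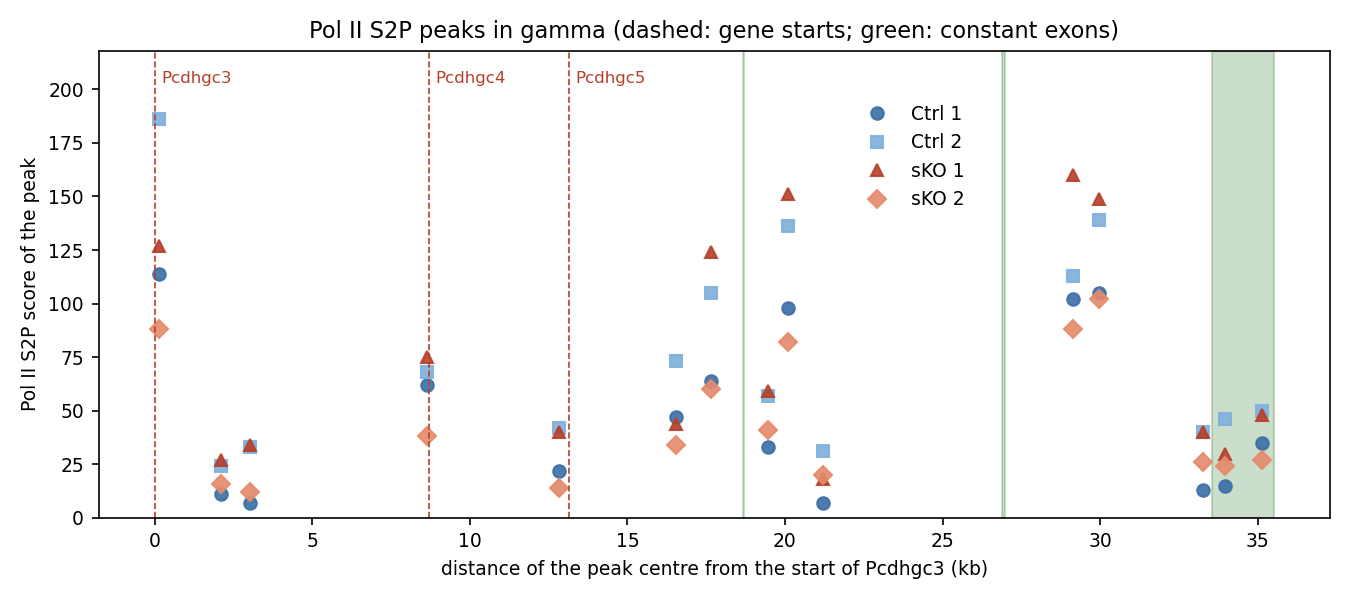
Pol II S2P score (vertical axis) of the 15 gamma peaks by distance of the peak centre from the start of Pcdhgc3 (kb) in each of 4 libraries; dashed lines are the starts of 3 C-type genes and green areas the constant exons. Ctrl and sKO points overlap at every peak but 1, and the highest value, 186, is a Ctrl library at Pcdhgc3.

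Ctrl replicate 1 was lower than Ctrl replicate 2 in 17 of 17 peaks, and sKO replicate 2 was lower than sKO replicate 1 in 16 of 17. The same order held for the library totals over autosomal peaks, at 3224367 and 4201202 for Ctrl against 4836482 and 3401198 for sKO. At the start of Taf7 the peaks scored 9 and 34 in Ctrl and 36 and 22 in sKO, and 7 and 25 in Ctrl against 44 and 13 in sKO. A stronger peak with no listed gene began 72 bp after the end of gamma and scored 255 and 277 in Ctrl against 261 and 188 in sKO.

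No change of Pol II S2P was called at the family. The gene listed as Pcdha4 summed to 701 and 1106 in Ctrl and 1128 and 656 in sKO, and changed by -0.03 ± 0.43 on the log2 scale. Pcdhga1 summed to 50 and 96 in Ctrl against 78 and 51 in sKO and changed by -0.13 ± 0.48. Each had an adjusted p of 1 in limma, and 0 of 8531 genes (0%) passed in either direction, with 100 at an unadjusted p under 0.05. The study itself reported increased Pol II S2P at a large number of genes. It used DESeq2 on the coverage of whole genes, not limma on sums over listed peaks, so the counts are not alike. On equal totals 1.26% of genes passed upward and 0.855% downward, and the members changed by -0.17 ± 0.12 and -0.27 ± 0.30 without a call.

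Of the 17 peaks, 6 had a mean score over 50 and were tested, and 0 were called beside 0.0447% higher and 0.00447% lower of 22353 peaks. The Pcdhgc3 start showed the most negative value, -0.46 ± 0.40 (limma adjusted p 0.9998), and -0.60 ± 0.23 on equal totals (limma adjusted p 0.169), where 2.49% of all peaks were called higher and 1.2% lower. The other 5 tested peaks lay between -0.28 and 0.14. As a share of the gamma Pol II S2P score, the Pcdhgc3 start held 15.5% and 16.3% in Ctrl and 11.3% and 13.1% in sKO. Both sKO libraries were lower (exact permutation test, two-sided p = 0.333). This peak was picked as the lowest of the 6. On equal totals, both sKO libraries lay below both Ctrl libraries in 3 of the 6 and in 5369 of 22340 peaks tested. The share of the autosomal score in the 17 peaks overlapped between groups, at 233 and 286 per 1000000 units in Ctrl and 249 and 208 in sKO (exact permutation p = 0.667).

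**Figure D4:**
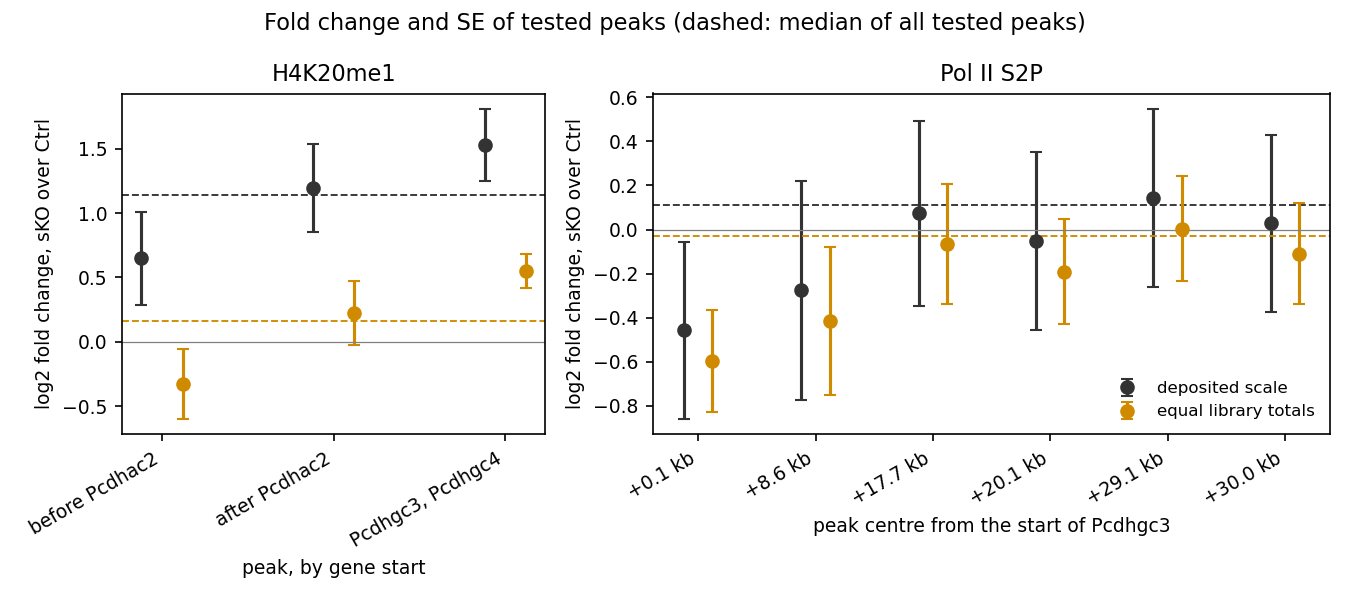
Log2 fold change of sKO over Ctrl with its SE for the 3 H4K20me1 peaks and the 6 tested Pol II S2P peaks, on the deposited scale (black) and on equal library totals (orange); dashed lines are medians of all tested peaks. The gamma H4K20me1 peak lies above the median on both scales (1.53 and 0.55), and the Pcdhgc3 start has the lowest Pol II S2P value (-0.46 and -0.60).

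The marks overlapped in part of gamma only. Of the 17 Pol II S2P peaks 4 (23.5%) overlapped an H4K20me1 peak, all at Pcdhgc3 and Pcdhgc4, against 64.4% of 50698 autosomal peaks. Around the constant exons Pol II S2P was listed without H4K20me1, and around Pcdhac2 H4K20me1 was listed without Pol II S2P.

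Genes beside the locus also gained H4K20me1 on the deposited scale, as did 92.3% of genes. Hars2, the mitochondrial histidyl-tRNA synthetase upstream of alpha, scored 313 and 332 in Ctrl and 1217 and 1241 in sKO (1.93 ± 0.27, limma adjusted p 2.3e-11). Diaph1, an actin-nucleating formin downstream of gamma, scored 2284 and 3091 in Ctrl and 7033 and 7372 in sKO (1.44 ± 0.29, limma adjusted p 2.1e-06). On equal totals Hars2 was still called higher (0.95), and Diaph1 at 0.46 fell short of the fold limit. For Pol II S2P, the groups overlapped at Diaph1, with Ctrl scores of 930 and 1156 against sKO scores of 1295 and 865. The deleted gene itself, Kmt5b, scored 1332 and 1740 in Ctrl and 1934 and 2196 in sKO for H4K20me1 (0.44 ± 0.27, limma adjusted p 0.118). Scaled to equal totals, and so relative to the library as a whole, it turned to -0.54, a call in the lower direction (limma adjusted p 2.5e-08). It scored 24 and 62 in Ctrl and 48 and 22 in sKO for Pol II S2P. Neither mark measures the Kmt5b transcript.

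Related genes were read beside the cluster. Of 12 non-clustered protocadherins, which are single genes outside the arrays, 6 were tested for H4K20me1 and 5 rose, beside 92.3% of all genes, with a median change of 1.34. The largest were Pcdh10 (1.57) and Pcdh7 (1.55), and the smallest were Pcdh8 (0.78) and Pcdh15, which was not called (0.50). All 12 tested genes from a list of 19 cadherins rose, with a median of 1.08. They ran from Cdh12 (2.37) and Cdh20 (1.43) down to Cdh22 (0.55) and Cdh13 (0.53). On equal totals 2 of the 6 protocadherins and 1 of the 12 cadherins were called higher and none lower, beside 20.8% of all genes higher and 5.69% lower.

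Among 13 genes for CTCF, cohesin and regulators of cohesin, 10 were tested and 6 rose, beside 92.3% of all genes, with a median of 0.57. Esco1 (1.04) and Mau2 (0.80) were highest, and Ctcf (0.39) and Pds5a (0.18) were lowest and not called. On equal totals 4 of the 10 were called lower and none higher, beside 5.69% of all genes lower and 20.8% higher. Of 8 genes that silence or methylate alternate promoters, 5 were tested and 5 rose, beside the same 92.3%, with a median of 0.88, from Atf7ip (1.13) and Dnmt3a (1.02) to Setdb1 (0.80) and Dnmt1 (0.70). On equal totals none of the 5 was called, and Setdb1 (-0.18) and Dnmt1 (-0.28) turned negative, as did Smchd1 (-0.10). For Pol II S2P, 1, 5, 6 and 6 genes of the 4 lists were tested and none was called by limma.

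The labelled cell type was checked against its markers. Pol II S2P was listed at 7 of 9 satellite cell and myoblast markers, among them Pax7 and Myod1, but not at Myf5 or Cdh15. Its sum over the 7 was 5732 and 6479 in Ctrl and 6981 and 4812 in sKO. Myod1, the myogenic master regulator, scored 1329 and 1110 in Ctrl against 887 and 649 in sKO. Both sKO libraries were lower, as in 386 of 8531 genes tested. As deposited, these values gave no call (-0.68 ± 0.43, limma adjusted p 1). With totals made equal Myod1 passed the test as lower (-0.82, limma adjusted p 0.00054), as were 0.855% of genes. The other muscle markers tested were called on neither scale, and on equal totals they ran from -0.31 (Itga7) to 0.07 (Met). Peaks were also listed at 1 of 4 endothelial, 1 of 3 immune, 1 of 4 fibro-adipogenic and 2 of 6 neural and glial markers. Cd68, the immune marker with a peak, scored 863 and 952 in Ctrl against 1308 and 840 in sKO. This was above Pax7, at 274 and 356 in Ctrl and 355 and 332 in sKO. It was below Des, at 2262 and 2635 in Ctrl and 3212 and 1987 in sKO. Myod1 was above Cd68 in the Ctrl libraries only, and the remaining muscle markers with a peak were below it. No peak was listed at Ptprc or Adgre1, the other immune markers. Cd68 had 1 listed peak, and whether its signal came from Cd68 was not tested. Pecam1, the endothelial marker with a peak, scored 82 and 119 in Ctrl against 147 and 84 in sKO. The neural and glial sum, over Rbfox3 and Sox10, was 416 and 612 in Ctrl against 620 and 455 in sKO. Col1a1, the fibro-adipogenic marker with a peak, scored 1093 in Ctrl replicate 1 and 16, 75 and 31 in the other libraries. The part of these marker differences in the protocadherin values was not tested.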

How the data were processed

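CUT&RUN libraries of cultured MuSCs were used: 2 Ctrl and 2 sKO for each antibody. The 2 IgG libraries were not used here. The authors trimmed reads with Trimmomatic 0.39, aligned them to mm10 (GRCm38) with STAR 2.7.3a keeping unique alignments, and removed duplicates with Picard 2.21.7; the submitters' processing notes also name SICER and MACS2 2.1.1. Each deposited score is the spike-in normalised coverage of 1 union peak in 1 library, given as a whole number, and each peak is credited to at most 1 gene. The depth in reads is not held by these scores, so no counting interval was given.

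Scores were summed by gene identifier. Autosomal features with a mean score over 50 were tested with limma 3.58.1 (R 4.3.3) on log2(score + 1) with an intensity trend, genotype being the sole term, and p-values were adjusted by Benjamini-Hochberg over all features tested. Count models were not used because the scores are normalised. The procedure was tested on simulated data. Gene coordinates in the tables matched GENCODE M21 for 98.9% of genes with H4K20me1 and 99.0% with Pol II S2P. All members with a peak were named; from each list the 2 largest and 2 smallest changes were named. The members and lists were chosen with earlier results of these data known.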

Additional observations from a re-analysis of the deposited data

How the results depend on the processing

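The H4K20me1 calls depended on the scale between libraries. Of 2 genes called on the deposited scale, 1 was called on equal library totals and 0 after quantile normalisation, and of 3 peaks 1 was called under either, higher on equal totals (22.5% of all peaks higher, 4.42% lower) and lower, before Pcdhac2, under quantile normalisation (11.6% higher, 11.6% lower). Pcdha1 turned from 0.94 to -0.037 on equal totals and -0.34 under quantile normalisation; the peak before Pcdhac2 turned to -0.33 and -0.65, and the peak after it to -0.080 under quantile normalisation. The Pol II S2P peaks at 37823589 and 37835946 turned to -0.066 and -0.11 on equal totals and to -0.078 and -0.080 under quantile normalisation, uncalled throughout.

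Leaving out 1 library at a time gave 1 to 2 H4K20me1 genes and 2 to 3 peaks called, and 0 Pol II S2P genes and peaks. For H4K20me1 the share of all genes called higher ran from 38.1% to 97.3% in these fits, and that of all peaks from 43.8% to 97.6%. The median change of members less that of all genes ran from 0.031 to 0.216 for H4K20me1 (0.125 with all libraries) and from -0.369 to 0.024 for Pol II S2P (-0.173). Under quantile normalisation, added after seeing the data for this value, it was -0.018 for H4K20me1 and -0.205 for Pol II S2P. The log2 ratio of shares ran from 0.23 to 0.42 and from -0.32 to -0.027. For Pol II S2P, fold changes ran from -0.42 to 0.36 for Pcdha4 and from -0.60 to 0.33 for Pcdhga1. Its tested peaks, in order along gamma, ran from -0.81 to -0.11, -0.76 to 0.21, -0.44 to 0.59, -0.49 to 0.38, -0.28 to 0.57 and -0.24 to 0.30.

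The difference between replicates correlated across genes at 0.041 between Ctrl and sKO for H4K20me1 and at -0.043 for Pol II S2P. This correlation cannot show a shift common to a whole library, and replicate 2 had the larger H4K20me1 total in both groups. With the replicate number as a block, the SE for H4K20me1 at Pcdha1 went from 0.29 to 0.22. For Pol II S2P at Pcdha4 it went from 0.43 to 0.82. With the replicate block 2 H4K20me1 genes and 3 peaks were called, beside 92.5% of genes and 90.5% of peaks higher, and 0 for Pol II S2P. Leaving out the 2 peaks at the Taf7 start, an alternative chosen after seeing the data, changed no call.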
